A study of Homo sapiens with 12 samples.

Results

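The clustered replication-dependent histone genes encode the H1 linker histones and the H2A, H2B, H3 and H4 core histones that package newly copied DNA. Members were taken by symbol: every gene named H2AC, H2BC, H3C or H4C with a number, together with H1-1 to H1-5. This rule found 68 of the 20375 listed genes: 5 H1, 17 H2A, 18 H2B, 13 H3 and 15 H4 genes. In RefSeq (GRCh38.p14) 54 of them lie on chromosome 6 between 25726063 and 27893891, 11 on chromosome 1 between 149782689 and 149887965, 2 on chromosome 1 between 228457364 and 228458558, and 1, H4C16, on chromosome 12.

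RNA was sequenced from PE/CA-PJ41, an established line of human oral squamous cell carcinoma. The groups were untreated cells (control), cells given human plasma at 10% for 48 h, and cells given platelet-rich plasma (PRP), a plasma fraction enriched in platelets, at 10% for 48 h. Each group had 4 libraries. The labels give the untreated cells no culture time, so a matched time for the comparisons with control is not assured, and they do not say that replicates were separate cultures: p-values reflect library-to-library spread alone, and that spread could be technical.

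During S phase cells need large amounts of histone protein, and these genes are transcribed together at that time. Their main transcripts have no introns and end in a conserved stem-loop instead of a poly(A) tail. Stem-loop binding protein, SLBP, and the U7 small nuclear ribonucleoprotein direct that end formation. Some histone genes also give polyadenylated transcripts that run past the stem-loop, above all in cells that leave the cell cycle or differentiate. The libraries here were made from captured polyadenylated RNA, so the values below count polyadenylated histone transcripts (and any other transcript carried through the capture), and not the bulk of histone mRNA. In bulk RNA, fewer cells in S phase and less histone RNA per cell cannot be told apart.

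The stem-loop is shown because the main transcripts end in it, and a polyadenylated transcript may run past it. A stem of 6 bases that opens with GG and closes a loop of 4 bases that opens with TT was searched for in the GENCODE 29 transcripts of the 64 members matched to that annotation. It was found in 27 members, in 4 forms (DNA letters, 5′ to 3′, stem in capitals and loop in lower case).
H2A, H2B and H3 genes, 15 members: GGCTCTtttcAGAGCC
H2BC4, H2BC5, H2BC7 and H3C8: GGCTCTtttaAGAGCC
H4C2, H4C5, H4C8, H4C11 and H4C16: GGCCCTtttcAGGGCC
H4C9, H4C14 and H4C15: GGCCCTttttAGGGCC
The H4 forms differ from the others in the stem. In 21 of the 27 members the annotation held a transcript that goes on for more than 100 bases after the stem-loop: 1729 bases in H2BC21, 1114 in a transcript of H2AC6 and 390 in H2AC25. In the 37 other matched members these letters are not in the annotated transcripts, many of which end with the coding sequence. H2BC12, the most abundant member, is among these 37. The annotation is not the transcript set of the deposited values, for which no name is given in the sources used here.

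Histone transcripts made up 0.0276% to 0.0351% of the reads of a library. Libraries held 36258955 to 41946780 estimated reads assigned to genes, and 11455 to 14744 of them fell on the 68 members. TPM is a transcript's share of its library, a level per transcript length, so comparisons between genes rest on the length assigned to each. That length was 533 bases for H2AC18 and 2224 for H2BC21 in every library. TPM summed over the members to 901.5 to 1001.9 in control, 1111.9 to 1186.8 after plasma and 1038.9 to 1101.5 after PRP. Every treated library had a larger sum than every control library. A few genes carried most of it: H2BC12, H1-2, H2AC6, H2AC25, H2AC18 and H2BC5 together held 77.6% of the members' TPM over the 12 libraries. The sum of the other 62 members overlapped between the groups, at 220.4 to 249.9 TPM in control, 233.2 to 254.3 after plasma and 227.6 to 245.7 after PRP.

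**Figure D1:**
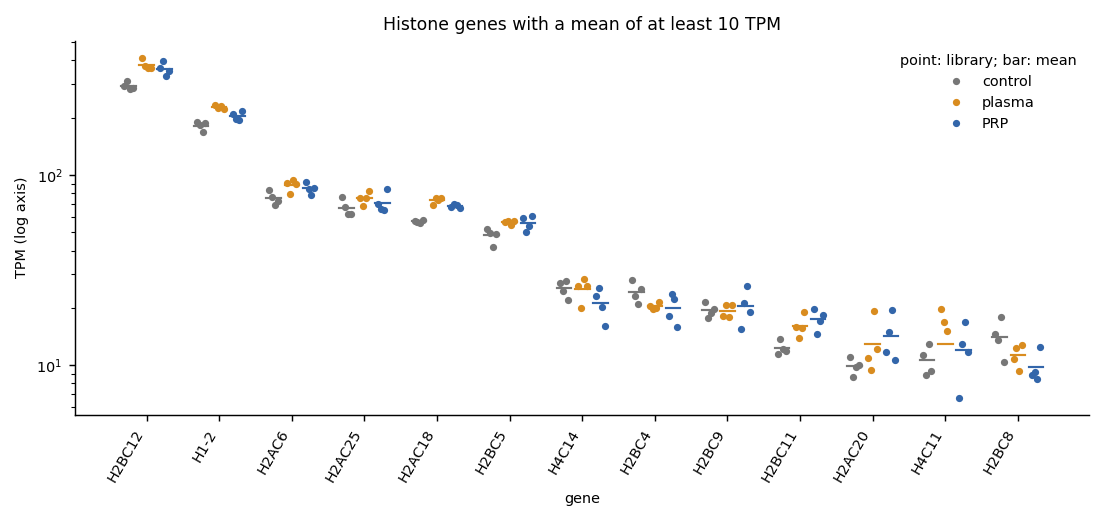
TPM on a log axis for the 13 histone genes with a mean of at least 10 TPM, with 1 point per library and a bar at the mean of the 4 libraries of control, plasma and PRP. H2BC12 and H1-2 stand above the rest, and for H2BC12, H1-2, H2AC18 and H2BC11 all 8 treated libraries lie above the 4 control libraries.

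By family, H2B genes held 46.1% of the members' TPM, H2A genes 25.6%, H1 genes 19.6%, H4 genes 5.34% and H3 genes 3.27%. The H1 sum was 186 ± 9.78 TPM in control, 232 ± 5.78 after plasma and 207 ± 10.3 after PRP (SD, n = 4). The H2A sum was 242 ± 16.4, 295 ± 17.9 and 279 ± 11.1 TPM, and the H2B sum 437 ± 16.6, 526 ± 23.1 and 506 ± 23.3 TPM. For these families every treated library exceeded every control library. The H3 sum (36.5 ± 4.40, 32.5 ± 2.63 and 35.2 ± 3.70 TPM) and the H4 sum (52.5 ± 4.27, 61.5 ± 4.48 and 56.1 ± 5.34 TPM) overlapped between the groups. The share of a family does not follow the number of its genes: the 13 H3 genes together were below H2BC5 alone in the means of every group. Nor is a short gene needed for a high level: in RefSeq 8 members span more than 1000 bases, among them H2BC12 (8566 bases), H2BC5 (13229) and H2BC4 (10757), and these 8 held 41.1% of the members' TPM. H1-2, at 731 bases, and the other members of shorter span held 58.9%.

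The test (limma on log2(TPM + 1)) covered the 12517 genes that reached 1 TPM in 4 or more libraries, and called a gene at an adjusted p under 0.05. Of the 68 members 52 passed this filter: 4 H1, 13 H2A, 13 H2B, 12 H3 and 10 H4 genes. Of the 16 that did not, 6 were listed with 0 reads in every library, where up to 3 reads per library cannot be told from 0: H2AC1, H2AC19, H2BC1, H3C14, H4C6 and H4C7. H2AC1 and H2BC1 are known as testis histone genes. H2BC26, with 287 reads in total, and H2AC15, with 194, were the untested members with at least 100 reads, and the 14 others had 0 to 57. Another 6 members (H1-3, H2AC4, H2BC15, H3C12, H4C5 and H4C9) passed with at most 5 libraries at 1 TPM, and of these H2AC4 reached 1 TPM in 0 control, 3 plasma and 1 PRP libraries, H2BC15 in 1, 4 and 0, and H3C12 in 1, 3 and 1. A gene that passes mainly through the group where it is high had to differ, so the counts below are over members that passed and not over all members.

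With plasma 12 of the 52 tested members were higher than in control and 1 was lower. Those are 23.1% and 1.92% of the tested members, where 20.3% of all tested genes were called higher and 29% lower. The share called higher is near that of all genes, and the share called lower is below it. The 12 include H2AC4 and H3C12, which passed the filter mainly through plasma libraries. The median difference was 0.17 on the log2 scale over the members and -0.05 over all genes. With PRP 7 members were higher and 5 lower (13.5% and 9.62%, against 21.7% and 31.5% of all genes), with a median of 0.16 against -0.06. Centring each library on its median gene changed the split to 15 higher and 1 lower with plasma and 12 and 2 with PRP. The calls over all 12517 tested genes moved too, from 2544 higher and 3629 lower to 3309 and 2803 with plasma. With PRP they moved from 2711 and 3941 to 3534 and 3016. The share of called genes that were lower went from 58.8% to 45.9% with plasma and from 59.2% to 46.0% with PRP. When 1 library was left out, the members lower with plasma numbered 2 without control 3 or 4, plasma 2 or 3 or PRP 4, and 3 without control 2; those lower with PRP numbered 3 without control 1, plasma 2 or 3, or PRP 1 or 4. Both comparisons use the same 4 control libraries, so their values are given side by side and are not independent.

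**Figure D2:**
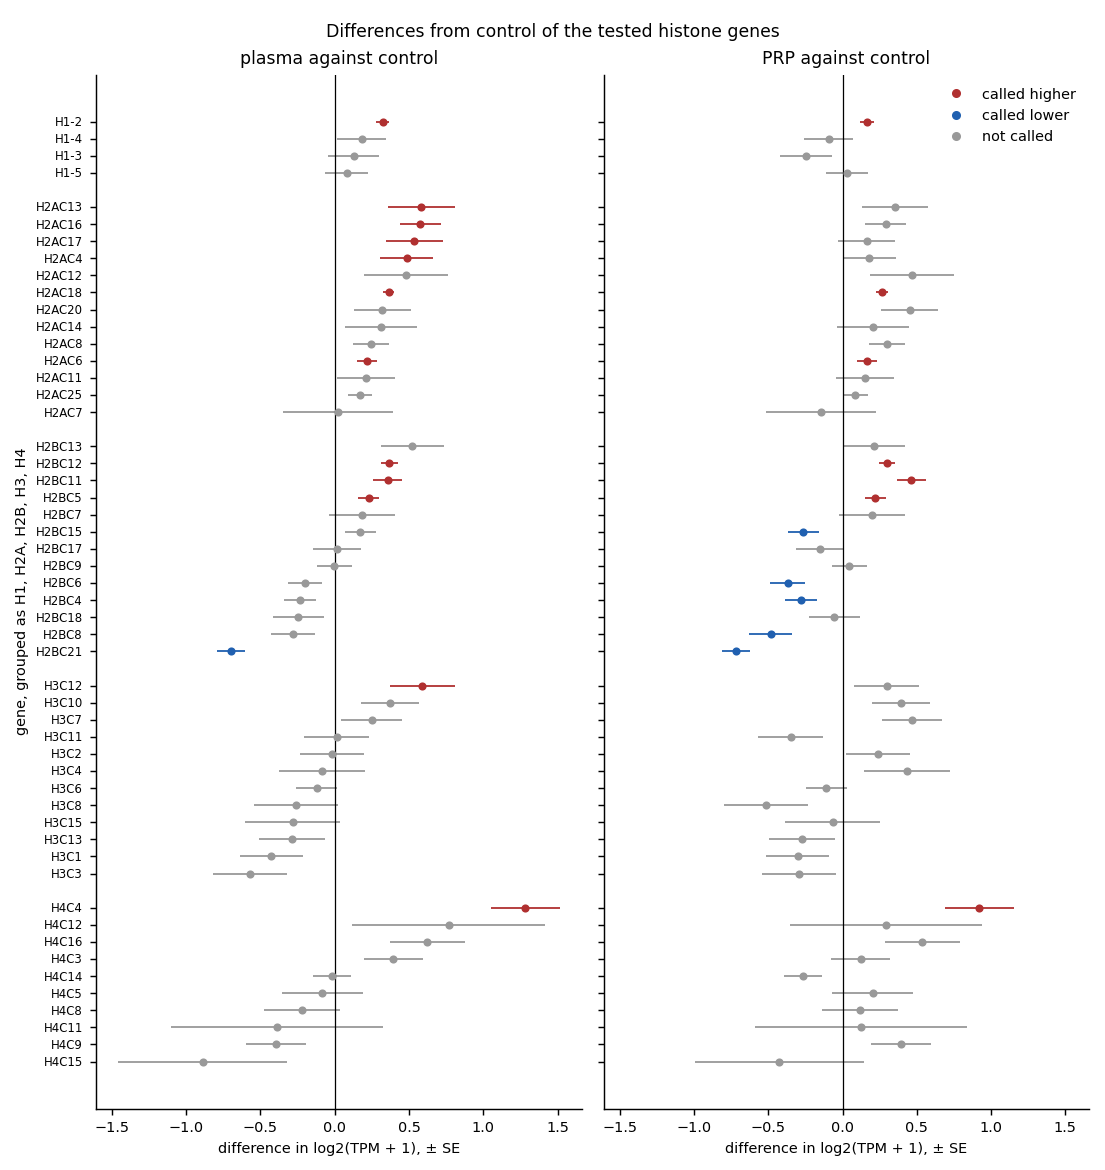
Difference in log2(TPM + 1) from control, ± SE, for the 52 tested histone genes with plasma (left) and PRP (right), grouped by family and ordered by the plasma value. All 13 H2A genes lie above 0 with plasma, H2B genes are called in both directions, and H4C4 at the top of the H4 genes has the largest called difference.

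H2BC21 was the member called lower with both treatments. It lies on chromosome 1 (149884459 to 149886682, GRCh38.p14), and its deposited length was the same in every library. H2BC21 stood at 10.4, 11.9, 9.21 and 8.88 TPM in the control libraries, 6.53, 5.68, 5.21 and 5.89 TPM after plasma and 6.40, 5.39, 5.33 and 5.82 TPM after PRP (means 10.1 ± 1.36, 5.83 ± 0.548 and 5.74 ± 0.494 TPM). The groups did not overlap: all 8 treated libraries were below the lowest control library. Its difference from control was -0.70 ± 0.09 with plasma (adjusted p = 3.86e-05) and -0.72 ± 0.09 after PRP (adjusted p = 2.49e-05). Estimated reads followed the same order, with 470 to 588 per library in control, 263 to 339 in plasma libraries and 287 to 325 in PRP libraries.

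The H1 linker histones bind the nucleosome where DNA enters and leaves it. H1-2, the second most abundant member, stood at 190.0, 182, 168 and 187 TPM in the control libraries, 234, 225, 229.8 and 222 TPM after plasma and 208, 196, 194 and 217 TPM after PRP (means 182 ± 10.0, 228 ± 5.41 and 204 ± 10.4 TPM). All 8 treated libraries were above the 4 control libraries. It rose by 0.32 ± 0.04 with plasma (adjusted p = 4.97e-05) and by 0.16 ± 0.04 after PRP (adjusted p = 0.00705) on the log2 scale. The other H1 genes were near 1 or 2 TPM and were not called. In control, plasma and PRP, mean levels were 1.97 ± 0.522, 2.35 ± 0.436 and 1.80 ± 0.607 TPM for H1-4, 0.977 ± 0.502, 1.05 ± 0.109 and 0.980 ± 0.122 TPM for H1-5 and 0.932 ± 0.173, 1.13 ± 0.383 and 0.661 ± 0.404 TPM for H1-3. H1-1, untested, had 2 reads in all.

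H2A genes were the family with the largest share called higher with plasma, 6 of 13, and all 13 differences were above 0 (median 0.32), where 20.3% of all genes were called higher. The 6 include H2AC4, which passed the filter through treated libraries alone. With PRP 2 of 13 were called higher (21.7% of all genes were) and 12 were above 0 (median 0.20). None was called lower. H2A pairs with H2B in the dimers that flank the H3-H4 core of the nucleosome. H2AC6 stood at 83.5, 76.6, 69.8 and 73.2 TPM in the control libraries, 90.6, 79, 94 and 89.1 TPM after plasma and 92.1, 84.5, 78.2 and 85.6 TPM after PRP (means 75.8 ± 5.83, 88.2 ± 6.46 and 85.1 ± 5.68 TPM). The groups overlapped, since the control library at 83.5 TPM was above the lowest library of each treatment. The rise was 0.22 ± 0.07 with plasma (adjusted p = 0.0142) and 0.17 ± 0.07 after PRP (adjusted p = 0.0458).

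H2AC18 had the smallest adjusted p of the members with plasma. It stood at 57.3, 56.7, 55.7 and 58 TPM in the control libraries, 69.1, 75.4, 73.9 and 75.8 TPM after plasma and 67.8, 70.7, 69.6 and 66.7 TPM after PRP (means 56.9 ± 0.978, 73.6 ± 3.06 and 68.7 ± 1.77 TPM). The control libraries lay close together and every treated library was above them. The rise was 0.36 ± 0.04 with plasma (adjusted p = 4.22e-06) and 0.27 ± 0.04 after PRP (adjusted p = 5.29e-05). H2AC19, a near-identical neighbour of H2AC18, was listed at 0 reads throughout, so the value may stand for both genes. H2AC25, at chromosome 1 228457364 to 228457873, was as abundant and was not called. Of 23 alternative settings of the test, 3 called H2AC25 higher with plasma and 1 with PRP. Its levels were 76.1, 67.7, 62.4 and 62.4 TPM in the control libraries, 75.3, 69, 75.2 and 82.6 TPM after plasma and 70.4, 65.9, 65.6 and 83.8 TPM after PRP (means 67.2 ± 6.46, 75.5 ± 5.58 and 71.4 ± 8.55 TPM), with overlapping groups and adjusted p of 0.105 and 0.402.

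Of the less abundant H2A genes, H2AC13, H2AC16, H2AC17 and H2AC4 were called higher with plasma and not with PRP. H2AC16 stood at 3.77, 3.44, 3.07 and 3.66 TPM in the control libraries, 6.40, 6.97, 6.11 and 3.73 TPM after plasma and 5.19, 4.14, 4.36 and 4.29 TPM after PRP (means 3.49 ± 0.308, 5.80 ± 1.43 and 4.49 ± 0.476 TPM). Of the plasma libraries 3 were above every control library and the fourth lay within the control range; the rise was 0.58 ± 0.14 (adjusted p = 0.00332). With PRP the 4 libraries lay above control, with a difference of 0.29 ± 0.14 that was not called (adjusted p = 0.088).

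H2AC17 stood at 6.55, 7.94, 4.59 and 6.04 TPM in the control libraries, 9.02, 7.56, 11.1 and 10.3 TPM after plasma and 5.10, 7.03, 6.02 and 11.2 TPM after PRP (means 6.28 ± 1.38, 9.49 ± 1.54 and 7.34 ± 2.70 TPM), with overlapping groups. Its plasma difference was 0.54 ± 0.19 (adjusted p = 0.0323). H2AC13 stood at 6.16, 3.77, 2.14 and 2.34 TPM in the control libraries, 4.36, 4.72, 7.23 and 6.14 TPM after plasma and 3.53, 4.64, 4.62 and 5.65 TPM after PRP (means 3.60 ± 1.85, 5.61 ± 1.32 and 4.61 ± 0.868 TPM), also overlapping, with a plasma difference of 0.58 ± 0.23 (adjusted p = 0.0448). H2AC4 stood at 0.582, 0.878, 0.685 and 0.706 TPM in the control libraries, 1.96, 1.40, 1.73 and 0.688 TPM after plasma and 1.58, 0.542, 0.825 and 0.943 TPM after PRP (means 0.713 ± 0.123, 1.44 ± 0.552 and 0.972 ± 0.439 TPM). It rests on 4 to 14 reads per library. It passed the filter through treated libraries alone, so a higher value there was favoured in advance. Its plasma difference was 0.48 ± 0.18 (adjusted p = 0.0366). These 3 calls depended on single libraries. The H2AC17 call was lost without control 3 or 4 or plasma 3 or 4 (adjusted p up to 0.0978). The H2AC13 call was lost without control 2, 3 or 4, plasma 3 or 4, or PRP 2 or 3 (up to 0.135). The H2AC4 call was lost without control 1, 3 or 4 or plasma 1, 2 or 3 (up to 0.108). That of H2AC6 with PRP was lost without control 2, 3 or 4, plasma 1 or 4, or PRP 1, 2 or 4 (up to 0.133).

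The other H2A genes were not called in either comparison. Their mean levels in control, plasma and PRP were 9.84 ± 0.965, 12.9 ± 4.37 and 14.2 ± 3.93 TPM for H2AC20, 6.24 ± 0.205, 7.68 ± 1.73 and 7.97 ± 1.25 TPM for H2AC8 and 4.42 ± 1.14, 5.26 ± 1.18 and 5.10 ± 1.64 TPM for H2AC11. For the rarer ones the means were 3.43 ± 1.18, 4.42 ± 0.964 and 4.21 ± 1.70 TPM for H2AC14, 2.29 ± 0.883, 2.28 ± 0.333 and 2.37 ± 1.59 TPM for H2AC7 and 0.965 ± 0.592, 1.76 ± 0.936 and 1.73 ± 0.841 TPM for H2AC12.

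H2B genes were called in both directions, as were genes at large. With plasma 3 of 13 were higher and 1 lower (23.1% and 7.69%, against 20.3% and 29% of all genes), and with PRP 3 were higher and 5 lower (23.1% and 38.5%, against 21.7% and 31.5%). H2BC12, the most abundant member, stood at 293, 311, 284 and 287 TPM in the control libraries, 414, 373, 366 and 367 TPM after plasma and 367, 397, 332 and 353 TPM after PRP (means 294 ± 12, 379.9 ± 22.6 and 362 ± 27.4 TPM). Every treated library was above every control library, and the plasma library at 414 TPM stood apart from the other plasma libraries. H2BC12 rose by 0.37 ± 0.05 with plasma (adjusted p = 8.23e-05) and 0.30 ± 0.05 after PRP (adjusted p = 0.000407).

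H2BC5 stood at 51.7, 49.7, 41.6 and 49.2 TPM in the control libraries, 56.4, 57, 54.5 and 57.2 TPM after plasma and 59.5, 49.9, 54 and 61.1 TPM after PRP (means 48 ± 4.44, 56.3 ± 1.25 and 56.1 ± 5.15 TPM). With plasma the groups did not overlap, and with PRP 1 treated library lay within the control range. The rise was 0.23 ± 0.07 (adjusted p = 0.0152) and 0.22 ± 0.07 (adjusted p = 0.0167); the PRP call was lost without control 3 or PRP 4 (up to 0.0564), with 1 effective length for all libraries (a difference of 0.13, adjusted p = 0.106) and from reads scaled by their total (0.0898). H2BC11 stood at 11.4, 13.7, 12.2 and 11.9 TPM in the control libraries, 15.8, 14, 15.7 and 19 TPM after plasma and 19.6, 14.6, 17 and 18.3 TPM after PRP (means 12.3 ± 0.968, 16.1 ± 2.12 and 17.4 ± 2.13 TPM), with every treated library above control. The rise was 0.36 ± 0.10 (adjusted p = 0.00779) and 0.46 ± 0.10 (adjusted p = 0.0012). The plasma call of H2BC11 rests on the deposited lengths: with 1 effective length for all libraries the adjusted p was 0.483, and from reads 0.263 or 0.362 by the scaling used. With 1 effective length its PRP difference was 0.28 and was still called.

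Besides H2BC21, 4 H2B genes were lower with PRP: H2BC4, H2BC6, H2BC8 and H2BC15. H2BC6 had means of 1.41 ± 0.236, 1.10 ± 0.301 and 0.860 ± 0.0988 TPM in control, plasma and PRP. Its PRP libraries, at 0.756 to 0.987 TPM, were all below control, at 1.14 to 1.69 TPM, and the difference was -0.37 ± 0.12 (adjusted p = 0.0162). H2BC15 had 0.911 ± 0.156, 1.15 ± 0.0212 and 0.594 ± 0.159 TPM, and a PRP difference of -0.26 ± 0.10 (adjusted p = 0.0435). Its deposited length varied between libraries by 2.73 times. With 1 effective length its PRP difference was -0.45, and its uncalled plasma difference changed from 0.17 to -0.20. The H2BC15 call was lost when any 1 library other than PRP 2 or control 4 was left out (up to 0.115). After median centring H2BC4, H2BC6 and H2BC15 were not called (adjusted p = 0.0968, 0.0531 and 0.112).

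The uncalled H2B genes had means, in control, plasma and PRP, of 19.4 ± 1.59, 19.4 ± 1.51 and 20.4 ± 4.42 TPM for H2BC9, 5.59 ± 0.945, 5.68 ± 1.13 and 4.97 ± 1.19 TPM for H2BC17 and 3.70 ± 1.12, 2.90 ± 0.518 and 3.46 ± 0.694 TPM for H2BC18. The remaining 2 had 1.74 ± 1.12, 2.72 ± 0.327 and 2.01 ± 0.370 TPM for H2BC13 and 1.0 ± 0.308, 1.35 ± 0.826 and 1.32 ± 0.586 TPM for H2BC7. H2BC9, near 20 TPM in each group, differed by -0.0045 ± 0.12 and 0.05 ± 0.12.

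Many H2A and H2B genes lie head to head and share the stretch between their start sites. Among the 63 members with a listed RefSeq promoter, 13 pairs pointed away from each other with start sites at most 1000 bases apart. In 9 of them both genes were tested. H2AC12, which begins at 27147106 next to the end of H2BC12 at 27146858, had no listed promoter and was not searched for pairs. H2AC7 and H3C4 are listed with the same start site, so their pairs with H2BC7 lie over the same stretch. The 3 pairs that hold H2BC21, H2BC4 and H2BC8 are shown, because the H2B gene of each was called lower while its H2A neighbour was not. The shared stretch runs from the H2B gene's start on the left to the H2A gene's start on the right, on the plus strand of GRCh38.p14, from RefSeq. Capitals mark the motifs TATAAA (the TATA box), CCAAT (bound by NF-Y) and ATTTGCAT (the octamer, bound by OCT1), read on both strands.
H2BC21 to H2AC20, chr1:149886683-149886917: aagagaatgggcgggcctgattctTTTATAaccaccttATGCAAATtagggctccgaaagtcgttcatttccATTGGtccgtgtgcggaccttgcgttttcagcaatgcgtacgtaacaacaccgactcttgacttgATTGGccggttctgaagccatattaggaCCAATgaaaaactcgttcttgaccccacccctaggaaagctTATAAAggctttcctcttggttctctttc
H2BC4 to H2AC6, chr6:26123927-26124171: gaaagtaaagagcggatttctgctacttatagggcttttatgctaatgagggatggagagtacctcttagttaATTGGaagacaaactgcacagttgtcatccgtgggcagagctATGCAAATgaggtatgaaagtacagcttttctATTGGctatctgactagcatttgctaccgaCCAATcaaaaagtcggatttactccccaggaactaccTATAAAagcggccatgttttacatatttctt
H2BC8 to H2AC8, chr6:26216689-26216920: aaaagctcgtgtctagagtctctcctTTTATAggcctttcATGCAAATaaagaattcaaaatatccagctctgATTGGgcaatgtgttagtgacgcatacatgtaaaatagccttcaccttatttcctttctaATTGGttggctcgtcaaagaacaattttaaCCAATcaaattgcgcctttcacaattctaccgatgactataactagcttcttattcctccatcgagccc
Each stretch holds 3 CCAAT boxes and 1 octamer, and in all 3 the octamer reads on the H2B gene's strand. TATAAA was found on both sides in the first, next to the H2A gene only in the second and next to the H2B gene only in the third.

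H2BC21 fell with both treatments while H2AC20, across 235 bases, stood at 11, 8.62, 9.79 and 10.0 TPM in the control libraries, 10.8, 9.47, 19.3 and 12.2 TPM after plasma and 11.7, 14.9, 19.4 and 10.6 TPM after PRP (means 9.84 ± 0.965, 12.9 ± 4.37 and 14.2 ± 3.93 TPM). H2AC20 was not called, with differences of 0.32 ± 0.19 (adjusted p = 0.185) and 0.45 ± 0.19 (adjusted p = 0.0608). Of 23 alternative settings of the test, 7 called H2AC20 higher with PRP and 0 with plasma. The log2 ratio of H2BC21 to H2AC20, with 1 TPM added to each, was -0.16 to 0.42 in control. It was -1.71 to -0.65 after plasma and -1.69 to -0.77 after PRP, so that the treated libraries did not overlap control.

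H2BC4 stood at 28, 23.1, 21 and 25.1 TPM in the control libraries, 20.5, 19.8, 19.98 and 21.5 TPM after plasma and 18.1, 23.6, 22.3 and 15.9 TPM after PRP (means 24.3 ± 2.98, 20.4 ± 0.750 and 19.96 ± 3.58 TPM). Its difference was -0.23 ± 0.11 with plasma, not called (adjusted p = 0.089), and -0.28 ± 0.11 with PRP (adjusted p = 0.0417), with overlapping groups, while its neighbour H2AC6 was called higher with both. The PRP call of H2BC4 was lost without control 1, 2 or 4, plasma 2 or 3, or PRP 1 or 4 (up to 0.137). The log2 ratio of H2BC4 to H2AC6, with 1 TPM added to each, was -1.69 to -1.51 in control. It was -2.18 to -1.94 after plasma and -2.36 to -1.77 after PRP, with no overlap with control.

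H2BC8 stood at 14.5, 13.6, 17.9 and 10.4 TPM in the control libraries, 10.7, 12.3, 9.31 and 12.8 TPM after plasma and 8.85, 9.14, 8.49 and 12.4 TPM after PRP (means 14.1 ± 3.10, 11.3 ± 1.59 and 9.71 ± 1.79 TPM). The PRP library at 12.4 TPM and the control library at 10.4 TPM overlapped. Its PRP difference was -0.48 ± 0.15 (adjusted p = 0.0129), with the call lost from reads scaled by median of ratios (0.0548) and without the 3 libraries numbered 1 (0.0747). Its plasma difference of -0.28 ± 0.15 was not called (adjusted p = 0.125). H2AC8 had differences of 0.24 ± 0.12 (adjusted p = 0.117) and 0.30 ± 0.12 (adjusted p = 0.0536), neither called. Of 23 alternative settings of the test, 6 called H2AC8 higher with PRP and 0 with plasma. The log2 ratio of H2BC8 to H2AC8, with 1 TPM added to each, was 0.67 to 1.33 in control. It was -0.12 to 0.89 after plasma and 0.15 to 0.33 after PRP. Only the PRP libraries stood clear of control. In the 6 other pairs found with both genes tested, the ratio in treated libraries overlapped that in control. These ratios were chosen after the values were seen and are a description.

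**Figure D3:**
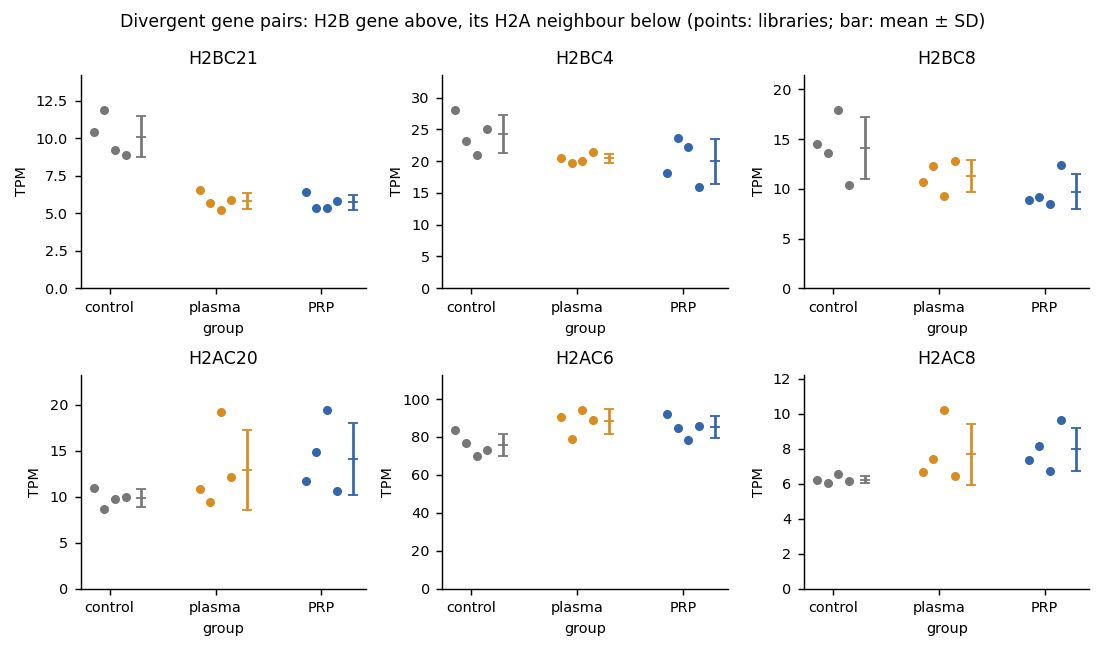
TPM in each library, with mean ± SD beside the 4 points, for 3 head-to-head pairs: H2BC21, H2BC4 and H2BC8 above and their neighbours H2AC20, H2AC6 and H2AC8 below, for control, plasma and PRP. H2BC21 lies at 8.88 to 11.9 TPM in control and at 5.21 to 6.53 TPM in the treated libraries, while the H2AC20 libraries overlap.

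The motifs were common in the members' promoters, taken as 250 bases before to 50 after the start of the 63 members listed. CCAAT, on either strand, was in 53 of 63 (84.1%), where 34.6% of the 35116 promoters of all genes held it. TATAAA was in 42 (66.7%, against 11.5%) and ATTTGCAT in 26 (41.3%, against 1.77%). Families differed: CCAAT was in all 5 H1, 16 H2A, 18 H2B and 11 H3 promoters and in 3 of 13 H4 promoters, and the octamer was in 14 of 18 H2B, 11 of 16 H2A, 1 of 11 H3, 0 of 5 H1 and 0 of 13 H4 promoters. Windows of head-to-head neighbours overlap, so 1 match can count for both genes. H3C4 and H2AC7 are listed with the same window, so the 1 H3 promoter with an octamer is also counted as an H2A promoter. A match is a description of the letters and not of binding.

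H3 forms the centre of the nucleosome with H4. Of the 12 tested H3 genes 1, H3C12, was called higher with plasma (all genes 20.3% higher and 29% lower). With PRP 0 were called (all genes 21.7% and 31.5%). There 1 H3 gene had an unadjusted p under 0.05, as had 7331 of the 12517 genes. H3C12 reached 1 TPM in 1 control, 3 plasma and 1 PRP libraries, so it passed the filter mainly through plasma. H3C12 stood at 1.38, 0, 0.144 and 0.745 TPM in the control libraries, 1.03, 1.48, 0.981 and 1.45 TPM after plasma and 0.998, 0.713, 1.01 and 0.568 TPM after PRP (means 0.567 ± 0.630, 1.23 ± 0.266 and 0.823 ± 0.219 TPM), on 0 to 10 reads per library. The groups overlapped, and the plasma difference was 0.59 ± 0.22 (adjusted p = 0.0396); the call was lost without control 2 or 3 or plasma 2 or 4 (up to 0.13). With plasma 8 of the 12 H3 differences were below 0 (median -0.10, against -0.05 over all genes).

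Mean H3 levels in control, plasma and PRP were 9.42 ± 1.54, 6.30 ± 2.56 and 7.80 ± 2.88 TPM for H3C3, 5.66 ± 1.73, 7.44 ± 1.19 and 7.68 ± 1.97 TPM for H3C10 and 5.91 ± 2.53, 4.61 ± 1.15 and 3.99 ± 2.43 TPM for H3C8. Next in level were 2.73 ± 0.620, 2.10 ± 0.782 and 2.19 ± 1.12 TPM for H3C13, 2.69 ± 0.858, 1.70 ± 0.374 and 2.01 ± 0.859 TPM for H3C1, 2.17 ± 0.671, 1.80 ± 1.14 and 2.07 ± 0.869 TPM for H3C15 and 2.01 ± 0.243, 1.78 ± 0.338 and 1.83 ± 0.588 TPM for H3C6. Lower still were 1.61 ± 1.01, 1.46 ± 0.786 and 2.43 ± 0.835 TPM for H3C4 and 1.13 ± 0.324, 1.55 ± 0.562 and 2.01 ± 0.799 TPM for H3C7. The remaining 2 had 1.56 ± 0.807, 1.49 ± 0.262 and 0.976 ± 0.436 TPM for H3C11 and 1.06 ± 0.629, 1.0 ± 0.458 and 1.36 ± 0.343 TPM for H3C2. H3C3, the most abundant, had a plasma difference of -0.57 ± 0.25 that was not called (adjusted p = 0.0719). H3C15 and H3C14 share an identical annotated transcript, and H3C14 was listed at 0 reads throughout.

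H4C4 had the largest called difference of the members. It stood at 0.478, 0.964, 1.13 and 2.57 TPM in the control libraries, 4.37, 3.85, 3.96 and 5.0 TPM after plasma and 4.14, 3.34, 1.79 and 3.57 TPM after PRP (means 1.29 ± 0.900, 4.30 ± 0.520 and 3.21 ± 1.0 TPM). All plasma libraries were above all control libraries, and 1 PRP library lay within the control range. The rise was 1.28 ± 0.23 with plasma (adjusted p = 0.000426) and 0.92 ± 0.23 after PRP (adjusted p = 0.00403). It rests on 2 to 11 reads per control library, 15 to 22 after plasma and 8 to 16 after PRP. No other of the 10 tested H4 genes was called singly (all genes 20.3% higher and 29% lower with plasma, 21.7% and 31.5% with PRP). H4C16, alone on chromosome 12, had 1.41 ± 0.511, 2.71 ± 0.696 and 2.65 ± 1.30 TPM in control, plasma and PRP and differences of 0.62 ± 0.25 (adjusted p = 0.0517) and 0.54 ± 0.25 (adjusted p = 0.0841), and its deposited length varied between libraries by 3.13 times.

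The remaining H4 means in control, plasma and PRP were 25.4 ± 2.64, 25.1 ± 3.51 and 21.2 ± 4.04 TPM for H4C14, 10.6 ± 1.83, 12.9 ± 8.80 and 12.1 ± 4.15 TPM for H4C11 and 5.05 ± 2.59, 3.89 ± 0.923 and 5.21 ± 1.35 TPM for H4C8. The rarer genes had 2.0 ± 0.784, 6.27 ± 8.21 and 4.15 ± 5.04 TPM for H4C12, 2.79 ± 0.924, 4.02 ± 1.31 and 3.04 ± 0.331 TPM for H4C3 and 1.84 ± 1.47, 0.550 ± 1.10 and 1.41 ± 2.14 TPM for H4C15, and the lowest 0.925 ± 0.504, 0.449 ± 0.277 and 1.52 ± 0.569 TPM for H4C9 and 0.846 ± 0.677, 0.675 ± 0.361 and 1.06 ± 0.552 TPM for H4C5.

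Histone coding sequences are so alike that reads can be assigned to the wrong copy. H4C11 and H4C12, both on chromosome 6, have the same 312 coding bases. H4C11 was listed at 34.5 to 52.9 reads in control, 61.1 to 80 reads in plasma 1 to 3 and 0 reads in plasma 4, where H4C12 had 90 reads against 20.9 to 22 in the other plasma libraries. In PRP 1 H4C11 had 24.4 reads and H4C12 45.6. The pair's sum was steadier, at 51 to 69 reads in control, 82 to 102 after plasma and 57 to 88 after PRP. Singly neither gene was called (H4C11 adjusted p = 0.677 and 0.897, H4C12 0.348 and 0.725). Summed, the pair rose from 12.6 ± 1.56 TPM in control to 19.2 ± 2.0 after plasma and 16.2 ± 2.39 after PRP, differences of 0.57 ± 0.11 (adjusted p = 0.000622) and 0.34 ± 0.11 (adjusted p = 0.0175). This sum was tested after the reads were seen.

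H4C14 and H4C15 share an annotated transcript of 610 bases. H4C15 was listed at 0 reads in 6 libraries and at 43.1 to 183 reads in the other 6. Their sum was 27.2 ± 2.48 TPM in control, 25.6 ± 3.85 after plasma and 22.6 ± 2.91 after PRP, and was not called (adjusted p = 0.523 and 0.0566). In the 105 pairs of H2B genes whose coding sequences could be compared, 84.8% to 94% of bases were identical, and H2BC12 differed from H2BC6 at 23 of 381 bases. H2BC1, H2BC15 and H2BC18 were not compared.

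**Figure D4:**
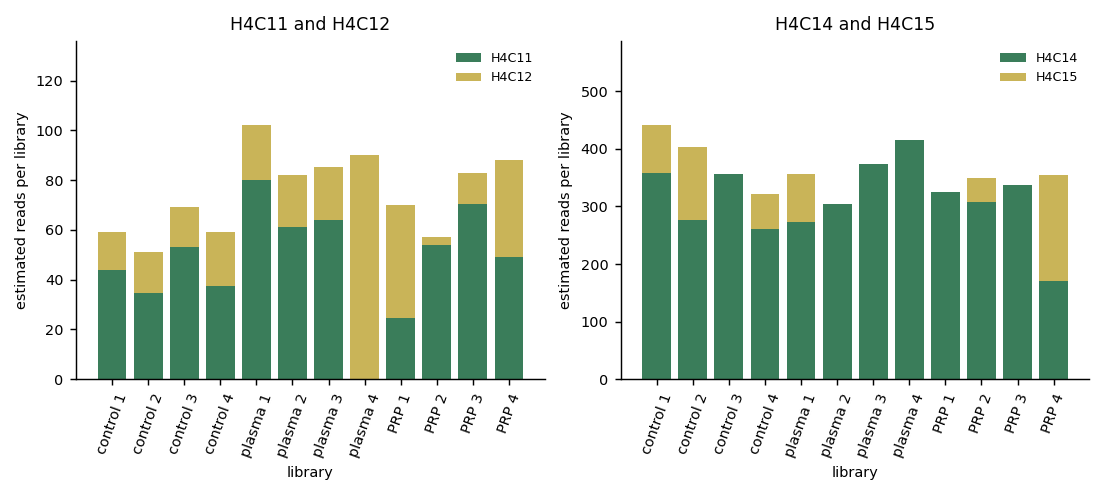
Estimated reads in each of the 12 libraries for H4C11 and H4C12 (left) and H4C14 and H4C15 (right), stacked. In plasma 4 all 90 reads of the left pair are listed under H4C12, and the share of H4C15 ranges from 0 reads to 183.

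No member was called between PRP and plasma, where limma called 8 of 12517 genes (0.0639%). Of the 52 members 5 had an unadjusted p under 0.05 (999 of all genes did), and limma's voom on the estimated reads called 0 members as well. The lowest adjusted p was 0.217, for H2BC15, at 1.13 to 1.17 TPM after plasma and 0.450 to 0.802 TPM after PRP, which did not overlap. H2BC15 reached 1 TPM in 4 plasma and 0 PRP libraries, so it passed the filter mainly through plasma and this gap was favoured in advance. With 1 effective length for all libraries its difference was -0.25 (adjusted p = 0.561), against -0.44 in the main test. H1-2, at an adjusted p of 0.34, stood at 222 to 234 TPM after plasma and 194 to 217 TPM after PRP, a difference of -0.16 ± 0.04. Differences between PRP and plasma were below 0 for all 4 H1, 11 of 13 H2A and 9 of 13 H2B genes. The count was 3 of 12 for H3 genes and 5 of 10 for H4 genes. The median over all genes was -0.004, and these differences came without a call. So genes called with plasma alone (H2AC4, H2AC13, H2AC16, H2AC17 and H3C12) or with PRP alone (H2BC4, H2BC6, H2BC8 and H2BC15) are not shown to respond differently.

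Replication-independent histone variants come from genes outside the clusters, most with introns, and with ordinary polyadenylated transcripts, and are made through the cell cycle. Of 11 tested 8 were called higher and 1 lower with plasma (all genes 20.3% and 29%), and 9 and 1 with PRP (all genes 21.7% and 31.5%), with median differences of 0.33 and 0.40. H1-10, a linker variant, had 158 ± 24.7, 295 ± 11.1 and 315 ± 13 TPM in control, plasma and PRP and rose by 0.90 ± 0.08 and 1.0 ± 0.08. H2AZ1, the H2A.Z variant found at active promoters, rose by 0.33 ± 0.04 and 0.46 ± 0.04, and MACROH2A1, a macro-domain H2A variant, by 0.32 ± 0.04 and 0.36 ± 0.04. H3-3B, a gene of the variant H3.3, was the one called lower with plasma; after median centring no variant was lower with PRP.

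Of 24 tested genes that transcribe the clusters and form the histone 3′ end, 6 were called higher and 6 lower with plasma (median 0.02), and 5 and 6 with PRP. Of all genes 20.3% were higher and 29% lower with plasma, and 21.7% and 31.5% with PRP. NPAT, the coactivator that switches on the histone clusters at entry to S phase, had 7.59 ± 0.358, 5.82 ± 0.529 and 5.80 ± 0.479 TPM and fell, with differences of -0.34 ± 0.08 (adjusted p = 0.00278) and -0.34 ± 0.08 (adjusted p = 0.00228). LSM11, a core protein of the U7 particle, differed by -0.39 ± 0.08 and -0.42 ± 0.08, and cyclin E2 (CCNE2), whose kinase activates NPAT, by -0.23 ± 0.05 and -0.20 ± 0.05, all called lower. SNRPB, an Sm protein shared with splicing particles, was higher, with 0.16 ± 0.03 and 0.22 ± 0.03. SNRPD3, another Sm protein, was called higher with plasma (0.56 ± 0.12) and not with PRP (0.28 ± 0.12, adjusted p = 0.0716). SLBP, with 70.1 ± 4.76, 64.7 ± 2.32 and 68.3 ± 1.28 TPM, was not called with either (adjusted p = 0.064 and 0.554).

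Genes of histone mRNA decay were 4 higher and 3 lower of 18 with each treatment, where 20.3% of all genes were higher and 29% lower with plasma and 21.7% and 31.5% with PRP. LSM4 and LSM7, subunits of the LSM1-7 ring that binds the tails of decaying mRNA, rose by 0.33 ± 0.05 and 0.29 ± 0.06 with plasma and 0.38 ± 0.05 and 0.40 ± 0.06 with PRP, and LSM6 of the same ring by 0.29 ± 0.09 and 0.44 ± 0.09. The tailing enzyme gene TENT2 was lower, with differences of -0.17 ± 0.04 and -0.19 ± 0.04. Cleavage and polyadenylation factors, which make poly(A) ends, were also 4 higher and 3 lower of 18 with each, to be read against those shares of all genes. CPSF4 rose by 0.71 ± 0.11 and 0.92 ± 0.11, while CPSF7 (-0.47 ± 0.06 and -0.50 ± 0.06) and CPSF1 (-0.37 ± 0.06 and -0.43 ± 0.06) were lower and SSU72 was higher (0.18 ± 0.03 and 0.17 ± 0.03).

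Histone chaperones, which carry histones to DNA, were 4 higher and 4 lower of 21 with plasma and 6 and 5 with PRP (all genes 20.3% and 29%, and 21.7% and 31.5%). SSRP1, a subunit of the FACT complex, had 97.1 ± 0.672, 180.0 ± 3.55 and 202 ± 13 TPM and rose by 0.88 ± 0.04 and 1.04 ± 0.04. ASF1A, a chaperone of H3 and H4, rose by 0.56 ± 0.05 and 0.61 ± 0.05, and NAP1L4, of H2A and H2B, by 0.21 ± 0.03 and 0.33 ± 0.03, while RBBP4 was lower (-0.20 ± 0.03 and -0.19 ± 0.03). Of 28 DNA replication genes 13 were higher and 4 lower with plasma (all genes 20.3% and 29%), and 14 and 2 with PRP (all genes 21.7% and 31.5%), with medians of 0.07 and 0.13 against -0.05 and -0.06 over all genes. GINS1, TK1, UHRF1 and TYMS, which act in replication forks, nucleotide supply and maintenance of DNA methylation, rose by 0.40 ± 0.05, 0.31 ± 0.04, 0.33 ± 0.07 and 0.23 ± 0.05 with plasma and by 0.33 ± 0.05, 0.27 ± 0.04, 0.48 ± 0.07 and 0.27 ± 0.05 with PRP. No gene of these 6 lists was called between PRP and plasma.

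Cell type markers were read beside these results. All 10 squamous markers were at 1 TPM or more in every library, and their sum was 11756 to 13138 TPM in control, 14305 to 15675 in plasma libraries and 14342 to 15983 in PRP libraries. The sums of the treated libraries did not overlap those of the control libraries. KRT5, at 6702 TPM on average, was the highest of the 10. Singly, 2 were called higher and 4 lower with plasma (all genes 20.3% and 29%). With PRP 2 were called higher and 2 lower (all genes 21.7% and 31.5%). Plasma and PRP can carry RNA of blood cells, and platelet markers summed to 0.488 to 0.718 TPM in control, 0.353 to 0.645 after plasma and 0.309 to 0.424 after PRP, with PF4 and GP9 at 0 reads throughout. Erythroid markers summed to 1.46 to 2.77, 1.21 to 1.92 and 1.05 to 2.87 TPM, with HBB and ALAS2 at 0 reads. The 10 leukocyte markers summed to 4.11 to 5.22 TPM in control, 6.01 to 7.80 after plasma and 6.46 to 8.14 after PRP; CD14 was the highest of them, at 4.05 TPM on average, and MS4A1 had 0 reads. Fibroblast markers summed to 16.3 to 21.9, 13.8 to 17.2 and 12.9 to 14.6 TPM. The part of these shifts in the histone values was not tested.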

How the data were processed

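Polyadenylated RNA was sequenced from 12 libraries, 4 per group. The submitters' processing notes list Salmon, with no version, and hg38; the transcript set and any use of strand are not given in the sources used here. Per the file headers, the deposited tables list the length, effective length, TPM and estimated count of reads of each gene in each library, with a decimal comma. The units were therefore registered under another unit name, and the test planned for TPM values, limma on the log2 scale, was used. For all 20375 genes of every library the deposited TPM followed from the estimated counts and effective lengths, to within 1% plus 0.01 TPM. A TPM value is relative to the rest of its library, and a change in assigned length moves it.

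limma 3.58.1 (R 4.3.3) was run with a trend on log2(TPM + 1) over the 12517 genes that reached 1 TPM in 4 or more libraries. Each group had 1 term, which left 9 degrees of freedom. The two-sided p-values were adjusted over all genes by Benjamini-Hochberg, and the threshold was 0.05. Differences on this scale understate the change of low genes. The code was checked on simulated data. SD and SE measure the spread between libraries, and the limit of 3 reads for a gene at 0 covers counting error only.

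The members and gene lists were chosen with earlier results of these data known. The rule names every tested member with its group means, and gives the value in each library for the 8 called members with the largest difference and the 4 most abundant ones; the other values given by library were added after they were seen. From the other lists the rule names at most 4 genes, those of smallest adjusted p with plasma; SLBP, NPAT, H3-3B and the pairs of copies were named after their values were seen. Of the genes the rule would name, 1 is not reported here. Positions and promoters come from RefSeq (GRCh38.p14), and transcripts, coding sequences and stem-loops from GENCODE 29. The alternatives were other pseudocounts, filters, scalings and lengths, limma's voom on estimated counts, a replicate block and libraries left out.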

Additional observations from a re-analysis of the deposited data

Results flagged for a closer look

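In each group of 4 libraries the highest and lowest TPM of every tested member were compared with the rest. Of 156 groups, 9 held a library that stood apart, where chance gives about 1 in 20, or 7.8. The part of any library's quality in these values was not tested.

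For H2BC12, the most abundant member, plasma 1 stood at 414 TPM against 366 to 373 TPM in the other plasma libraries, on 4850 reads. For H4C12 a library stood apart in both control and plasma: plasma 4 was at 18.6 TPM (90 reads, where H4C11 had 0) and control 4 at 3.17 TPM against 1.54 to 1.72 TPM. H4C15 was at 2.20 TPM in plasma 1 and at 0 in the other 3 plasma libraries.

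PRP 4 stood apart for 3 genes. H2AC7 was listed at 0 there against 2.87 to 3.36 TPM in the other PRP libraries, H2BC17 was at 3.20 TPM against 5.45 to 5.72 TPM, and H2BC8 was at 12.4 TPM against 8.49 to 9.14 TPM. H2AC14 was at 2.99 TPM in plasma 2 (16 reads) against 4.72 to 5.05 TPM, and H3C1 at 1.41 TPM in control 2 (9 reads) against 3.08 to 3.17 TPM.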

How the results depend on the processing

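The 25 calls of single members (13 with plasma and 12 with PRP) were recomputed under 23 alternatives: 493 of 573 values kept their call, 80 lost it and 0 changed direction, and 14 of the 25 calls held under every alternative that could be computed. These 14 include H2BC21, H1-2, H2AC18, H2BC12 and H4C4 with both treatments. Members higher with plasma numbered 8 to 15, and members called between PRP and plasma numbered 0 under all of them. Members lower with plasma, 1 in the main test, numbered 2 with the filter at 0.1 TPM, with no filter, with only the 2 groups compared, with voom scaled by median of ratios and with the replicate block, 3 with voom scaled by total reads, 4 with 1 effective length, and 1 to 3 when 1 library was left out. Members lower with PRP numbered 2 with median centring (12 higher), 3 with only the 2 groups compared, with voom scaled by median of ratios and with the replicate block, 1 without the 3 libraries numbered 1, and 3 to 6 when 1 library was left out. Genes called between PRP and plasma over all genes, 8 in the main test, numbered 19 with 1 effective length, 4 with no filter, 16 with only the 2 groups compared, 13 with voom scaled by total reads, 1 without the 3 libraries numbered 1, and 4 to 14 when 1 library was left out. The summing of near-identical copies was added after the data were seen.

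The correlation of the deviations of same-numbered libraries was -0.067 to 0.304 and exceeded 0.1 in 5 of 12 pairs, among them all 3 pairs of libraries numbered 1 (0.152 to 0.304). Pairing was taken only where every pair exceeded 0.1, so the numbers were not taken as pairs. With the replicate block 12 members were higher and 2 lower with plasma, and 9 and 3 with PRP.

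The median standard error was 0.098 on the log2 scale for the 13 tested members at 10 TPM or more, 0.213 for the 34 between 1 and 10 TPM and 0.201 for the 5 under 1 TPM, where the added 1 TPM damps differences. Deposited lengths varied between libraries for 20 of the 52 tested members, by more than 1.5 times for 8, and moved their TPM.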
